A study of Mus musculus with 2 samples.

Results

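The genes of the AMPA receptor subunits, Gria1, Gria2, Gria3 and Gria4, were followed across 2 coronal sections of mouse brain. They were taken by symbol from the gene lists of both count matrices, where each symbol had 1 row, and are 4 of the 32285 genes counted. AMPA receptors are the channels that carry most of the fast excitatory current between neurons. Each receptor is built from the protein products of these genes, GluA1 to GluA4, and the mix of subunits sets how the channel conducts and how it is moved to and from the synapse. In the hippocampus, pyramidal cells are known for receptors with GluA1, GluA2 and GluA3, and the trafficking of GluA1 is a textbook step of synaptic potentiation.

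Both sections came from adult male mice of the genotype ArcCreERT2::eYFPflx on a C57BL/6 background, aged 3 to 4 months, and each held the dorsal hippocampus of both sides. The line carries an inducible Cre recombinase under control of Arc and a floxed yellow fluorescent protein, and both animals shared it. One mouse had learned active place avoidance, in which an animal on a turning arena learns to stay away from a sector with a mild foot shock, and the other had explored the same arena without shock. Brains had been frozen after a later test of memory with the shock off. The question was how expression in the layers of the dorsal hippocampus differs after recall.

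RNA was captured on Visium slides, on which each barcoded spot collects polyadenylated RNA from the tissue above it and each captured molecule is counted once by a unique molecular identifier (UMI). A spot can hold several cells of different types, so fewer cells of a type and less RNA per cell cannot be told apart. The section labelled trained had 4152 spots with 29515831 UMIs (median 5950.5 per spot) and the section labelled untrained had 3738 spots with 59029131 UMIs (median 13766.5), so the second was counted at greater depth. They shared 3448 spot barcodes, since all slides of this kind carry 1 set of barcodes by position. Mitochondrially encoded RNA made up 12.3% and 16.2% of the UMIs. Each label was represented by 1 section of 1 mouse (n = 1 and n = 1), so training, animal, section and library cannot be told apart, no p-value was computed, and differences between the sections are without replicates. It is not certain that the deposited labels match the groups as the study's text uses them, so every direction holds only for the labels as deposited.

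The regions were groups of spots with similar expression, found without using the 4 genes and named from marker genes. The hippocampus comprised 567 spots in the section labelled trained and 544 in the section labelled untrained. It was divided into the CA1 pyramidal layer (108 and 117 spots), the CA3 pyramidal layer (101 and 130 spots, which also held CA2, since the CA2 gene Rgs14 was among its leading genes), the dentate granule layer (121 and 140 spots) and the hippocampal neuropil (237 and 157 spots), the zone of dendrites and axons between the cell layers. The 5 CA1 markers summed to 1441 and 1409 CPM (UMIs scaled to 1000000 per region) in the CA1 layer, against 97.3 and 93.9 CPM in the dentate granule layer. The 5 dentate markers summed to 803 and 696 CPM in the dentate granule layer, against 17.3 and 50.9 CPM in CA1. The 6 CA3 markers were less specific, with 738 and 799 CPM in the CA3 layer but 823 and 904 CPM in the habenula. The 4 CA2 markers had 402 and 333 CPM in the CA3 layer and 1393 and 1398 CPM in the habenula. These markers had named the regions, so their levels describe the regions and are no separate check of the names. Over both sections, 19 regions had at least 20 spots in each and were compared.

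On the mouse genome build GRCm38/mm10, Gria1 (ENSMUSG00000020524) lies on chr11:57011387-57330244 on the plus strand and Gria2 (ENSMUSG00000033981) on chr3:80681450-80802835 on the minus strand. Gria3 (ENSMUSG00000001986) lies on chrX:41400854-41678601 on the plus strand and Gria4 (ENSMUSG00000025892) on chr9:4417896-4796234 on the minus strand. GluA2 differs from the others in 1 respect. A glutamine codon in the stretch that lines the pore is changed in its RNA to an arginine codon by the editing enzyme ADAR2, and edited GluA2 makes receptors nearly impermeable to calcium. The genome holds a glutamine codon there in all 4 genes. The coding sequence around it is shown 5′ to 3′ on the strand of each gene, with that codon in capitals, because Gria2, whose level differed by 1.5-fold or more between the sections, is the one known to be edited there.
Gria1: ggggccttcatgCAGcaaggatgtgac
Gria2: ggtgcctttatgCAGcaaggatgcgat
Gria3: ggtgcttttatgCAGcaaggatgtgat
Gria4: ggtgcctttatgCAAcaaggatgtgac
The codon is number 600 in Gria1, 607 in Gria2, 612 in Gria3 and 608 in Gria4, counted from the start codon, and lies in coding exon 11 of each. The windows span chr11:57243082-57243108, chr3:80706899-80706925, chrX:41610253-41610279 and chr9:4464125-4464151. Of the 27 bases, Gria1 shared 23 with Gria2, Gria3 shared 25 and Gria4 shared 24. Counts of UMIs do not show whether a transcript was edited.

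The 4 genes were measured at very different depths. Gria1 had 6266 UMIs in the section labelled trained and 11862 in the section labelled untrained. For Gria2 the totals were 8619 and 9496 UMIs, for Gria3 3449 and 5136, and for Gria4 760 and 1522. At least 1 UMI was seen in 56.4% and 77.1% of spots for Gria1, in 58.0% and 67.3% for Gria2, in 38.2% and 54.8% for Gria3 and in 14.98% and 29.9% for Gria4. By Moran's I, a score computed by the authors for how alike neighbouring spots are, Gria2 ranked 223 of 20513 and 222 of 21498 genes and Gria1 ranked 381 and 326. Gria3 ranked 780 and 862, and Gria4 ranked 4897 and 5503. The rank of each gene was thus close in the 2 sections, with Gria2 the most patterned of the family in both.

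**Figure D1:**
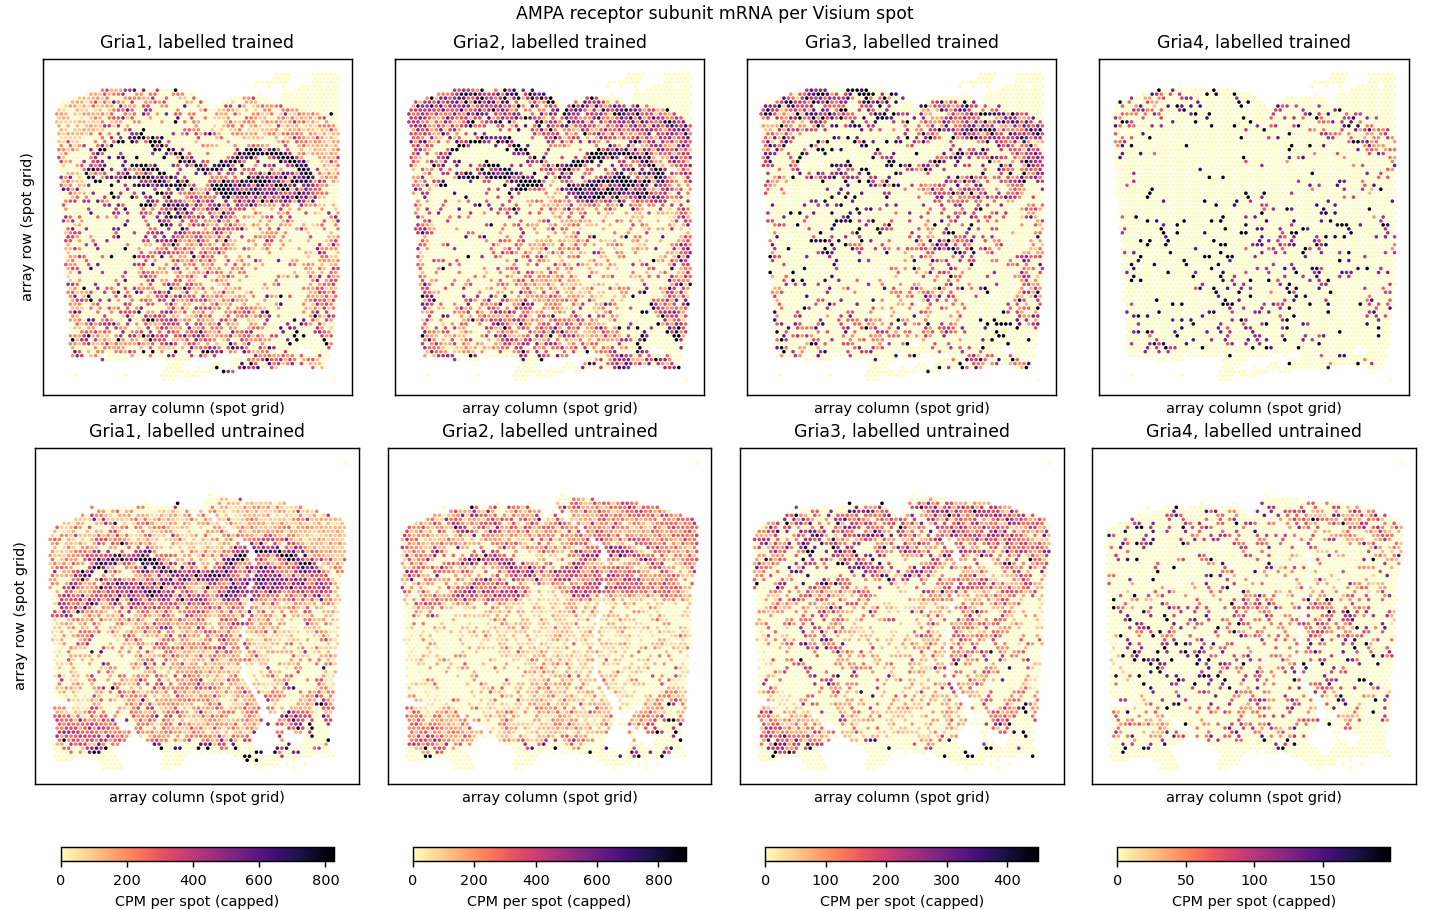
Each dot is 1 Visium spot at its place on the slide grid (array column across, array row down), coloured by CPM of the gene in that spot, with the colour scale capped and shared by both sections for each gene. Dark bands of Gria1 and Gria2 follow the cell layers of the hippocampus in both sections, Gria3 also covers the cortex at the top, and Gria4 is sparse and outside the hippocampus for the most part.

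Together the family was most abundant in the cell layers of the hippocampus. The summed level of the 4 genes was 1346 CPM (95% interval 1312 to 1381) in the hippocampus of the section labelled trained and 872 CPM (855 to 890) in that of the section labelled untrained, against 527 and 382 CPM in the rest of each section. All intervals here and below cover counting error only. The cell layers led the order of all 19 regions in both sections, with CA1 at 1823 and 1180 CPM, the dentate granule layer at 1622 and 898 CPM and CA3 at 1122 and 773 CPM, each step larger than its counting error. The hippocampal neuropil had 517 and 523 CPM, at rank 9 of the 19 regions in the section labelled trained and rank 5 in the other. The lowest values were 215 CPM in white matter of the section labelled trained and 154 CPM in the choroid plexus of the section labelled untrained.

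Gria1, which encodes the subunit GluA1, was the gene most concentrated in the hippocampus. Its level there was 567 CPM (545 to 590) in the section labelled trained and 431 CPM (419 to 444) in the section labelled untrained. That was 3.75-fold (log2 difference 1.91, 1.83 to 1.98) and 2.92-fold (1.55, 1.49 to 1.60) the level in the rest of the section. The hippocampus held 39.2% and 40.4% of all Gria1 UMIs. CA1 was highest, at 783 CPM (731 to 837) in the section labelled trained and 585 CPM (556 to 616) in the section labelled untrained. The dentate granule layer followed at 691 and 447 CPM, CA3 at 434 and 366 CPM and the hippocampal neuropil at 249 and 284 CPM. CA1 exceeded CA3 by 0.85 (0.69 to 1.01) and 0.68 (0.57 to 0.79) on the log2 scale, and did so on the left and on the right side of both sections.

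Among the compared regions outside the hippocampus, the level of Gria1 was highest in the habenula, at 299 CPM in the section labelled trained, and in the striatum, at 258 CPM in the section labelled untrained, where the habenula had 249 CPM. The striatum had 31 spots in that section and 230 in the other. The counting intervals of habenula, striatum and hippocampal neuropil overlapped in the section labelled untrained, so that their order there was not resolved. In the section labelled trained the habenula had 127 UMIs of Gria1. It did not exceed the neuropil beyond counting error there (log2 difference 0.26, -0.08 to 0.60). Nor did the neuropil exceed the hypothalamic region led by Oxt (0.12, -0.14 to 0.38). In cortex Gria1 was low, with 126 and 108 CPM in upper layers and 119 and 143 CPM in deep layers.

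Gria2, which encodes the edited subunit, had the same leading regions. The hippocampal level was 606 CPM (583 to 630) in the section labelled trained and 302 CPM (292 to 313) in the section labelled untrained, 2.55-fold and 2.36-fold the level in the rest of each section. CA1 had 799 CPM (747 to 854) in the section labelled trained and 402 CPM (378 to 428) in the section labelled untrained. The dentate granule layer had 760.3 and 327 CPM, and CA3 had 507 and 262 CPM. In the section labelled trained CA1 and the dentate granule layer did not differ beyond counting error (log2 difference 0.07, -0.06 to 0.21), whereas CA1 was higher by 0.30 (0.18 to 0.42) in the other section.

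Among the 19 regions, upper layer cortex came directly after the hippocampal cell layers for Gria2, with 446 and 240.4 CPM. Deep layer cortex had 327 and 203 CPM, and the striatum had 330.4 and 145 CPM. The thalamic regions and the habenula were low for Gria2, with 145 and 82.5 CPM in the thalamic region led by Ctxn3, 106 and 62.8 CPM in the thalamic region led by Prkcd and 132 and 77.9 CPM in the habenula.

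The hippocampal level of Gria3, which encodes GluA3, was 163 CPM (151 to 175) in the section labelled trained and 123 CPM (117 to 130) in the section labelled untrained, 1.49-fold and 1.57-fold the level in the rest of each section. CA1 led with 225 and 175 CPM, followed by upper layer cortex with 202 and 144 CPM, deep layer cortex with 179 and 139 CPM, CA3 with 169 and 126 CPM and the dentate granule layer with 162 and 113 CPM. In the section labelled trained CA1 and upper layer cortex did not differ beyond counting error, and in both sections CA3 and the dentate granule layer did not (log2 difference 0.06, -0.22 to 0.34, and 0.16, -0.04 to 0.36). The habenula was at or near the bottom for Gria3, with 16.5 and 26.2 CPM, although Gria1 was high there.

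Gria4, which encodes GluA4, a subunit known from interneurons and from the thalamus, was the only member with a lower level inside the hippocampus than outside it in both sections. It had 10.4 CPM (7.58 to 13.9, from 45 UMIs) in the hippocampus of the section labelled trained and 15.3 CPM (13.1 to 17.8, from 170 UMIs) in that of the section labelled untrained. The rest of each section had 28.4 and 28.2 CPM, so the hippocampus stood lower by a log2 difference of -1.44 (-1.92 to -1.02) and -0.88 (-1.12 to -0.65). The choroid plexus, an epithelium with no neurons, had 13.8 and 8.90 CPM, so the hippocampal level of Gria4 was not above it in the section labelled trained. The highest level was in the region of the reticular thalamus and zona incerta, at 50.9 CPM (37.6 to 67.2) and 44.6 CPM (28.3 to 66.9), and upper layer cortex had 38.7 and 40.2 CPM. Of the 18 steps between neighbouring regions in the order of Gria4, all 18 were within counting error in each section.

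**Figure D2:**
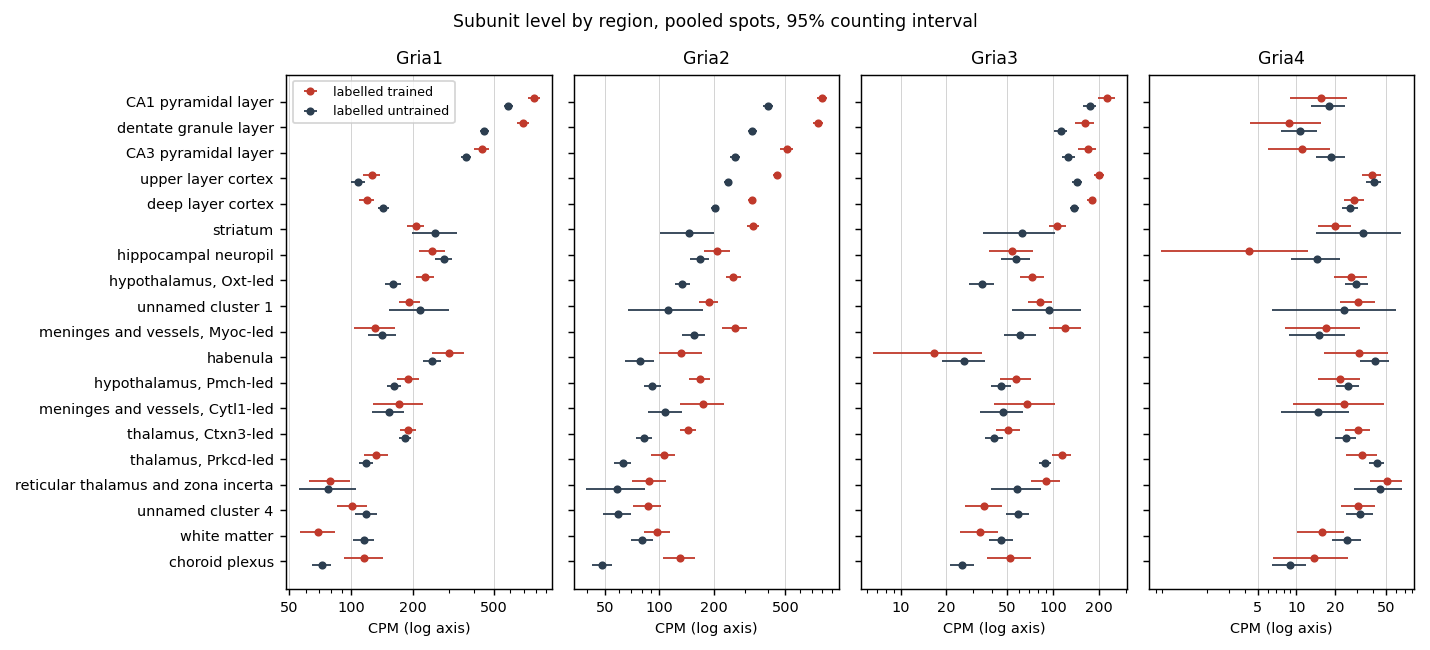
Level of each subunit gene in CPM (log axis) in the 19 regions, ordered by the summed level of the family over both sections, with red for the section labelled trained and dark blue for the section labelled untrained. Points are pooled spots of a region and bars are 95% counting intervals, and the points of Gria1, Gria2 and Gria3 are highest in CA1 (783, 799 and 225 CPM in the section labelled trained) while those of Gria4 are highest in the reticular thalamus and zona incerta.

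The order of regions was alike in the 2 sections. The rank correlation between the sections over the 19 regions was 0.93 for Gria1, 0.96 for Gria2, 0.86 for Gria3 and 0.82 for Gria4, as a description of regions that share a library. Within a section, neighbouring regions in the order of Gria1 were within counting error at 15 of 18 steps in the section labelled trained and at 13 in the other, and for Gria2 at 13 steps in both. The left and right sides of a section gave a spread as well. In the section labelled trained, hippocampal Gria2 was 541 CPM on the left and 631 CPM on the right, and in the section labelled untrained 281 and 314 CPM.

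With each spot thinned to 2000 UMIs, Gria1 was detected in 72.9% (63.4 to 81.0) of CA1 spots of the section labelled trained and in 64.1% (54.7 to 72.8) of those of the section labelled untrained. In the choroid plexus, which should lack the receptor, the thinned share was 13.3% and 12.9%. Gria2 was detected in 72.9% and 50.4% of CA1 spots, against 18.7% and 9.82% in the choroid plexus, and Gria3 in 26.2% and 17.9%, against 8% and 5.52%. Gria4 was detected in 1.87% and 3.42% of thinned CA1 spots, within the interval of its share in the choroid plexus, 1.33% (0.0338 to 7.21) and 3.07% (1.003 to 7.01). The pooled level of Gria4 in the section labelled untrained was 17.9 CPM (13.1 to 23.9) in CA1 and 8.90 CPM (6.44 to 11.99) in the choroid plexus. In the section labelled trained the intervals of both levels overlapped, at 15.5 and 13.8 CPM. The choroid plexus spots were not free of neuronal RNA, as the 3 markers of all neurons summed to 876 and 451 CPM there. Without thinning, Gria1 was detected in 92.6% and 100% of CA1 spots and in 68% and 78.5% of choroid plexus spots. The median depth was 8084.5 and 17360 UMIs in CA1 and 8613 and 24331 UMIs in the choroid plexus.

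The subunit mix is the share of each gene in the summed UMIs of the 4 genes. Capture at the 3′ end with UMIs counts molecules and not length, so the genes were set side by side as counted molecules. In the hippocampus of the section labelled trained, Gria2 made up 45.0% (43.8 to 46.3), Gria1 42.1% (40.8 to 43.4), Gria3 12.1% (11.2 to 12.9) and Gria4 0.772% (0.563 to 1.03). In that of the section labelled untrained, Gria1 made up 49.4% (48.4 to 50.4), Gria2 34.6% (33.7 to 35.6), Gria3 14.2% (13.5 to 14.9) and Gria4 1.75% (1.502 to 2.04). Gria1 and Gria2 together made up most of the family in both hippocampi, with Gria2 first in 1 section and Gria1 first in the other. That order is one of counted molecules. The longest transcript has 10371 bases for Gria2 and 5546 for Gria1. Divided by these lengths, Gria1 came first in both sections, at 52.7% and 58.3%, with Gria2 at 30.2% and 21.8%. The division lowers the share of Gria2 because its transcript is longer, and counts from the 3′ end do not call for it.

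The share of Gria1 was 42.9%, 38.7%, 42.6% and 48.2% in CA1, CA3, the dentate granule layer and the neuropil of the section labelled trained, and 49.6%, 47.4%, 49.8% and 54.3% in the section labelled untrained. Within the hippocampus the share of Gria3 was highest in CA3, at 15.1% (13.2 to 17.0) and 16.3% (14.9 to 17.8). In CA1 it was 12.4% (10.96 to 13.9) and 14.8% (13.5 to 16.1). The intervals of CA3 and CA1 overlapped in both sections, so a maximum in CA3 was not resolved. The share of Gria3 was lower in the dentate granule layer, at 9.99% (8.72 to 11.4) and 12.6% (11.5 to 13.8). The intervals of CA3 and the dentate granule layer did not overlap in either section.

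Across the brain the mix varied widely. Gria1 ranged from 15.5% in upper layer cortex to 62.6% (55.5 to 69.2) in the habenula of the section labelled trained, and from 20.3% to 63.2% (59.2 to 67.0) in the same regions of the section labelled untrained. Gria2 was highest in upper layer cortex, at 54.9% and 45.1%. Gria3 was highest in the thalamic region led by Prkcd, at 29.8% (26.2 to 33.5) and 28.3% (26.1 to 30.5), and lowest in the habenula, at 3.45% (1.40 to 6.98) and 6.63% (4.78 to 8.92). The interval of that highest share overlapped others in both sections. Among these were the reticular thalamus and zona incerta (29.3% and 24.4%), deep layer cortex (27.4% and 27.1%) and upper layer cortex (24.8% and 27.0%). The thalamic region led by Ctxn3 had 12.2% and 12.4% Gria3 and 45.8% and 55.3% Gria1. The thalamic regions led by Prkcd and by Ctxn3 thus differed beyond counting error in both genes. Gria4 was highest in the reticular thalamus and zona incerta, at 16.5% (12.5 to 21.2) and 18.7% (12.2 to 26.7), and lowest in the dentate granule layer, at 0.541% and 1.19%.

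Put as UMIs of Gria1 per UMI of Gria2, upper layer cortex had 0.283 and 0.45, CA1 0.98 and 1.46, and the habenula 2.27 and 3.2 in the sections labelled trained and untrained. Whether both genes were captured equally well was not tested, so these ratios serve to compare regions. The share of Gria2 was higher in the section labelled trained in 19 of 19 regions, and the share of Gria1 was lower there in 19 of 19. The regions of a section share 1 library. The order of the regions by share was alike, with rank correlations between the sections of 0.82, 0.87, 0.84 and 0.87 for Gria1 to Gria4 over 19 regions.

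**Figure D3:**
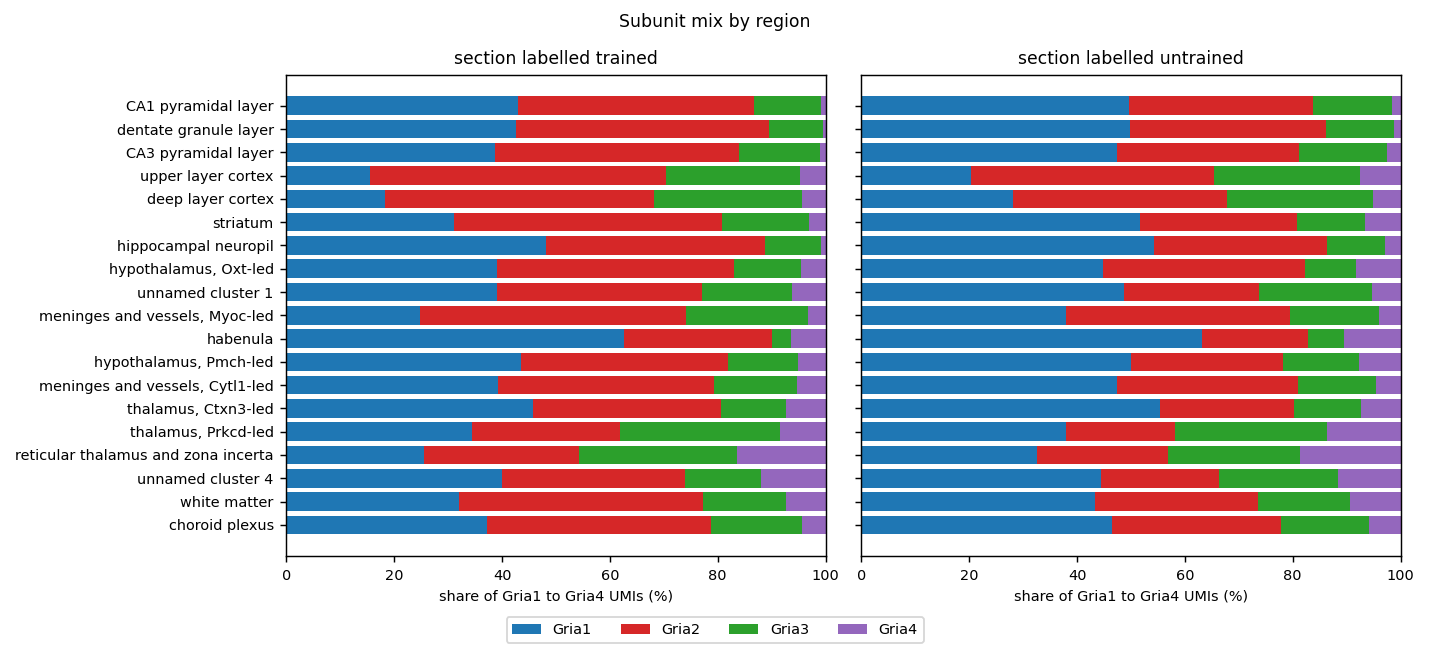
Share of each gene in the summed UMIs of Gria1 to Gria4 (percent, bars add to 100) in 19 regions of the section labelled trained on the left and the section labelled untrained on the right. The blue share of Gria1 is largest in the habenula (62.6% and 63.2%) and smallest in upper layer cortex (15.5% and 20.3%), and the red share of Gria2 is wider on the left in every region.

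Of the 3 members past a minimum of 400 UMIs over both sections, Gria2 had the largest pooled difference between the sections. In the hippocampus its level was 606 CPM in the section labelled trained and 302 CPM in the section labelled untrained, a 2.01-fold difference (log2 1.004, 0.93 to 1.08). Gria1 was 1.31-fold higher in the section labelled trained (log2 0.39, 0.32 to 0.46) and Gria3 1.32-fold higher (log2 0.40, 0.26 to 0.53). With every spot weighted equally in place of pooled UMIs, these were 0.15 for Gria1, 0.19 for Gria3 and 0.75 for Gria2. Gria4 had 10.4 and 15.3 CPM (log2 -0.55, -1.07 to -0.08) from 45 and 170 UMIs, under that minimum, which was set for comparing genes. Its value was -1.09 with spots weighted equally and -1.42 on the left sides alone. The median log2 difference of all 5736 genes past that minimum was 0.07, and 12.9% of them differed by 1.5-fold or more in either direction. Of the 3 members, 1 did so, Gria2, or 2 on the left sides alone, where Gria3 had 0.59. The pooled Gria2 difference was larger than that of 99.01% of the genes, while Gria1 and Gria3 stood above 80.5% and 80.7% of them.

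The Gria2 difference was past 1.5-fold in each of the 3 cell layers. It was 0.99 (0.86 to 1.12) in CA1, where 14.1% of 1594 genes differed by 1.5-fold or more, and Gria2 was the only such member of the 3 past the minimum. It was 0.95 (0.80 to 1.10) in CA3, where 14.3% of 2062 genes and again only Gria2 of 3 members did so. In the dentate granule layer it was 1.22 (1.09 to 1.34), with Gria1 at 0.63 (0.51 to 0.75) also past 1.5-fold, so that 2 of 3 members were, against 18.7% of 2214 genes. In the hippocampal neuropil, where 13.3% of 662 genes passed 1.5-fold, neither of the 2 members past the minimum did: Gria2 differed by 0.33 (0.02 to 0.62) and Gria1 by -0.18 (-0.45 to 0.07). Gria3 differed by 0.37, 0.42 and 0.52 in CA1, CA3 and the dentate granule layer and by -0.07 (-0.68 to 0.48) in the neuropil.

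The difference in Gria2 was not particular to the hippocampus. In the rest of the section it was 0.89 (0.84 to 0.95), and over the whole section, where 12.8% of 11460 genes differed by 1.5-fold or more, it was 0.86 (0.82 to 0.90), with Gria2 the only such member of 4. It was above 0 in 19 of 19 regions, from 0.28 (-0.04 to 0.59) in white matter to 1.43 (1.07 to 1.78) in the choroid plexus, and the interval excluded 0 in 17 of them. The regions at both ends of that range had fewer than 400 UMIs of Gria2. Of the 11 regions past the minimum, 10 differed by 1.5-fold or more, and the values ran from 0.33 in the hippocampal neuropil to 1.22 in the dentate granule layer. Upper layer cortex stood at 0.89 (0.785 to 1.001), deep layer cortex at 0.69 (0.58 to 0.79) and the thalamic region led by Ctxn3 at 0.81 (0.60 to 1.02).

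Gria1 did not differ in 1 direction across the brain. Its whole-section difference was 0.08 (0.03 to 0.12), beside a median of all genes of 0.07. It was 0.0086 with spots weighted equally and -0.00105 with TMM factors, an alternative scaling of the library totals, so its direction depended on the scaling. It was higher in the section labelled trained in CA1 (0.42, 0.30 to 0.54), the dentate granule layer and CA3 (0.25, 0.10 to 0.39), and lower there in deep layer cortex (-0.27, -0.42 to -0.12) and white matter (-0.74, -1.09 to -0.42). Of 19 regions, 7 had an interval above 0 and 2 had one below 0. Gria3 had an interval above 0 in 11 regions and below 0 in 1, a cluster of 384 and 254 spots without a name led by Spp1, Pvalb and Syt2 (-0.72, -1.23 to -0.25, from fewer than 400 UMIs). The whole-section difference of Gria4 was -0.00 (-0.13 to 0.12, with 25.7 and 25.8 CPM), and -0.21 with spots weighted equally.

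**Figure D4:**
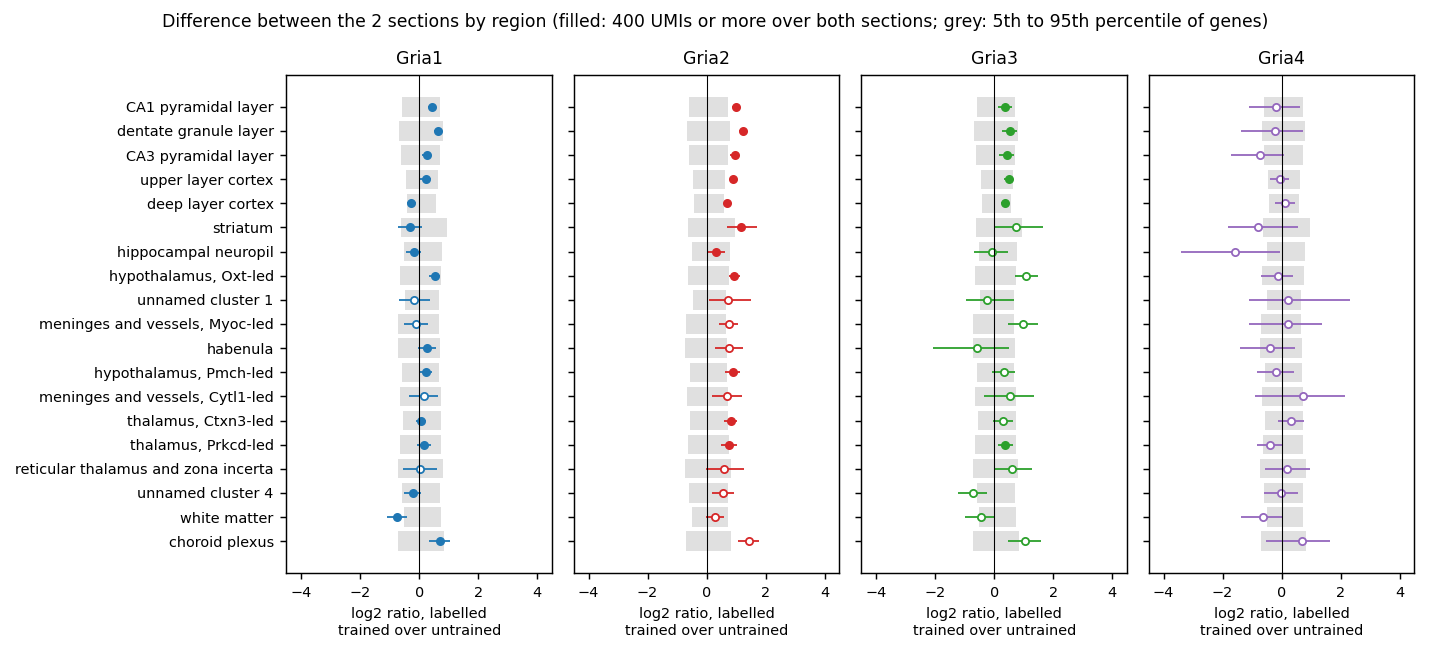
Log2 ratio between the sections (trained over untrained, as labelled) in 19 regions for each gene, with lines for the 95% counting interval, filled points where the gene had at least 400 UMIs over both sections and grey bars for the 5th to 95th percentile of all genes past that minimum. The points of Gria2 lie above 0 in every region, and those of Gria1 lie on both sides, from -0.74 in white matter to 0.70 in the choroid plexus.

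Several measures of the tissue differed between the sections as well. In the hippocampus the share of mitochondrially encoded RNA was 11.6% and 16.2%, and the median depth of a spot was 5387 and 16753.5 UMIs. The 8 choroid plexus markers, which include the very abundant Ttr, summed to 957 CPM in the section labelled trained and 4219 CPM in the section labelled untrained, with 1 of 8 higher in the former. The 3 neuronal markers summed to 2856 and 2287 CPM, with all 3 higher in the section labelled trained, and the 4 astrocyte markers to 614 and 380 CPM, with all 4 higher. The 8 white matter markers summed to 1882 and 2466 CPM (1 of 8 higher in the section labelled trained), the 4 microglial markers to 83.8 and 99.9 CPM (1 of 4) and the 6 interneuron markers to 849 and 744 CPM (4 of 6). None of these marker genes was at 0. Their part in the differences of the Gria genes was not tested.

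Within CA1, the levels of the subunit genes were lower in the neuropil than in the cell layer. Spots of the neuropil were counted by their distance from the CA1 layer on the slide grid, with 88 and 71 spots at 1 step and 34 and 26 spots at 2 steps. At 1 step, Gria1 had 28.1% of its CA1 layer level in the section labelled trained and 49.9% in the section labelled untrained. At 2 steps, with 19 and 67 UMIs, it had 25.2% (log2 -1.95, -2.73 to -1.33) and 47.4% (-1.07, -1.45 to -0.72). Gria2 had 26.0% and 42.3% at 2 steps and Gria3 had 18.5% (4 UMIs) and 23.7% (10 UMIs). Gria4 had 0 of 96145 UMIs (95% upper limit 38.4 CPM) and 3 UMIs at 2 steps, too few for a profile.

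Genes with known sites of their RNA gave the scale. The 5 dendritic mRNAs were also the markers that named the neuropil, so their own profile is no finding. Of 5 mRNAs known from dendrites, Camk2a, the kinase of potentiation, had 211% and 147% of its CA1 layer level at 2 steps, and the scaffold gene Shank1 had 221% and 181%. Ddn had 145% and 108%, Map2 131% and 107% and Psd 114% and 85.2%. The nuclear RNAs Meg3 and Snhg11 had 44.7% and 59.2% in the section labelled trained and 43.7% and 39.1% in the section labelled untrained. In the section labelled trained the intervals of Gria1 and Gria2 overlapped that of Meg3 and lay below that of Snhg11, while in the other section they overlapped those of both nuclear RNAs. The median log2 change over all genes with enough UMIs was -0.59 over 1062 genes and -0.54 over 2368 genes, and 4.99% and 18.5% of those genes had a lower value than Gria1. The neuropil had a mitochondrial share of 26.1% and 29.4%, against 8.66% and 14.2% in the CA1 layer, and the 4 astrocyte markers summed to 1348 and 738 CPM there, against 387 and 292 CPM. Their part in the profile was not tested.

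**Figure D5:**
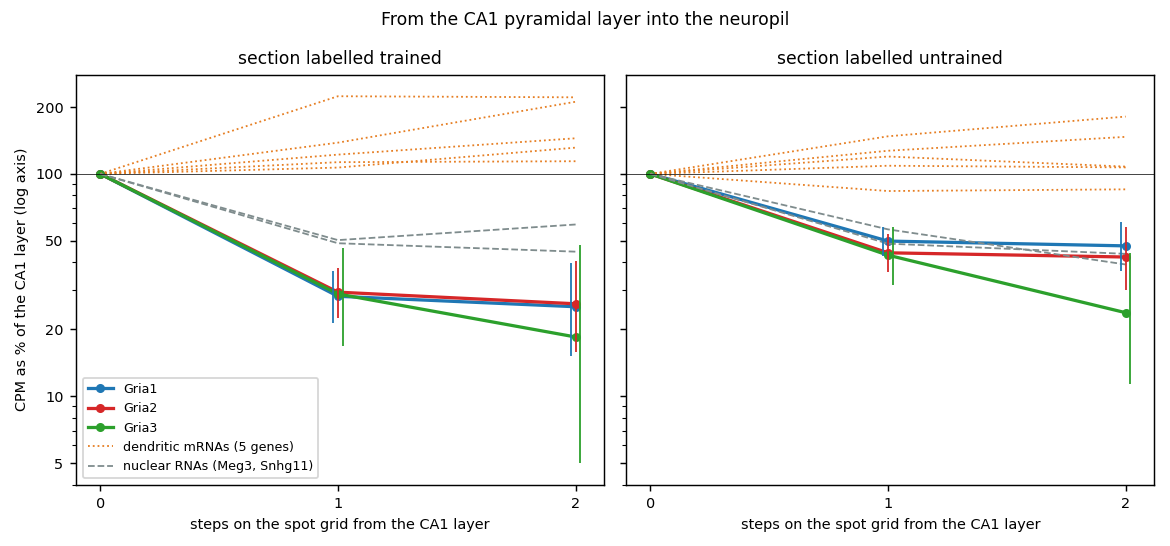
Level in CPM as a percentage of the CA1 layer (log axis) at 0, 1 and 2 steps on the spot grid from the CA1 layer, for Gria1, Gria2 and Gria3 (solid, with 95% counting intervals), 5 dendritic mRNAs (dotted) and 2 nuclear RNAs (dashed). The subunit genes lie between 18.5% and 47.4% at 2 steps. The dendritic mRNAs, which named the neuropil, are drawn for scale.

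The partners of the receptor were taken from a list of 33 genes in 6 groups, all of which had a row in the count matrices. In the hippocampus 20 passed the minimum of 400 UMIs, of which 0 were at least 1.5-fold higher and 3 at least 1.5-fold lower in the section labelled trained, against 8.70% and 4.18% of all genes. Their median log2 difference was -0.24, beside 0.07 for all genes. Over the whole section 31 passed, with 1 higher and 3 lower and a median of 0.01, against 8.06% higher, 4.75% lower and a median of 0.07 over all genes. The gene higher was Grip1 (0.65, 0.42 to 0.88), and those lower were Cnih2, Prrt1 and Cnih3 (-0.65, -0.76 to -0.53). Grip1 and Cnih3 are named here after their values were seen.

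Among the auxiliary subunits that travel with the receptor, the cornichon Cnih2, which aids export from the endoplasmic reticulum and slows the closing of the channel, was the most abundant, with 564 CPM in the section labelled trained and 868 CPM in the section labelled untrained (log2 -0.62, -0.69 to -0.56). It was highest in CA1, as were Gria1, Gria2 and Gria3, with 692 and 1105 CPM there and 496 and 674 CPM in the neuropil. Of the TARP family, transmembrane proteins that bring receptors to the synapse, only Cacng3 of 6 genes passed the minimum, with 37.4 and 53.5 CPM (-0.51). The TARP gene Cacng8 had 12 and 44 UMIs in the hippocampus (2.77 and 3.96 CPM). Prrt2, of the other receptor complex members, had 2 and 3 UMIs there. Cacng8 and Prrt2 are named here after their values were seen. Whether such low counts reflect low expression or poor capture of a transcript was not tested. Of the CKAMP family, Shisa6 and Shisa7 had the highest hippocampal levels, at 81.0 CPM for Shisa6 in the section labelled trained and 93.8 CPM for Shisa7 in the section labelled untrained, and 3 of its 4 genes passed the minimum with none past 1.5-fold.

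Of the 11 other members of receptor complexes, Olfm1, a secreted protein found with the receptor, was highest, at 1888 and 2230 CPM (log2 -0.24). Prrt1, also called SynDIG4, had 128 and 213 CPM (-0.74, -0.87 to -0.60), and Porcn, an acyltransferase of the endoplasmic reticulum, had 52.4 and 79.8 CPM (-0.60, -0.82 to -0.40). These and Cnih2 were the 3 genes at least 1.5-fold lower. Of the 7 genes whose products bind the subunits or move them, Nsf, an ATPase that binds GluA2, was highest at 716 and 677 CPM (0.08), and none of the 5 past the minimum differed by 1.5-fold.

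Of the 3 editing genes, Adarb1, which encodes ADAR2, had 91.0 and 86.9 CPM in the hippocampus (0.07). Its level was highest in the thalamic region led by Prkcd, at 553 and 520 CPM, where Gria2 was among its lowest, and it was 53.6 and 51.7 CPM in CA1, where Gria2 was highest. These are levels of mRNA and say nothing of the edited share.

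Finally, genes were ranked by how alike their pattern over the 19 regions was to that of each subunit, by the lower of the Pearson correlations in the 2 sections of log2(CPM + 1), among 4905 genes with at least 1000 UMIs in each. The closest to Gria1 were Scn3b, a sodium channel beta subunit (0.86), Abi1 (0.84) and Dbn1, the actin-binding drebrin of dendritic spines (0.83). The closest to Gria2 were Ppp3r1, the regulatory subunit of calcineurin (0.95), Gpm6a (0.94) and Shisa7 of the partner list (0.94). The closest to Gria3 were Abhd12 (0.86), Calm2, a calmodulin gene (0.86), and Abhd6 of the partner list (0.85), and the closest to Gria4 were Kif1a, a kinesin motor (0.78), Rab11fip5 (0.77) and Armcx1 (0.77). Within the family, Gria1 and Gria2 reached 0.74, as did Gria2 and Gria3, whereas Gria1 and Gria3 reached 0.33 and Gria4 reached -0.48 with Gria1, -0.40 with Gria2 and -0.07 with Gria3. These 3 values for Gria4 are those of the section labelled trained, and in the section labelled untrained they were -0.28, -0.28 and 0.03. These are descriptions over regions that share a library.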

How the data were processed

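Spatial counts of 2 Visium sections were used, and each section was 1 replicate. The counts had been made by the authors with Space Ranger 2.0.0 on the 10x reference for mm10, as UMIs per gene and spot, and were deposited without normalization. A score, Moran's I, was taken from the authors' deposited table of spatial enrichment. The p-values and normalized averages in that table, and the image scale factors, were not used here.

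For each region the UMIs of its spots were added up and expressed as CPM. Intervals of 95% were exact Poisson for CPM, Clopper-Pearson for shares and exact conditional binomial for log2 ratios (pseudocount 0.5 UMI), and cover counting error only. No count test was run, because there was 1 section per label. Ratios were compared among genes with at least 400 UMIs over both sections.

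Both sections were clustered together (scanpy 1.11.5, Leiden resolution 1.5, seed 7, 15 neighbours, 30 principal components) on 943 variable genes without the 4 subunits, the partner list, immediate early genes, mitochondrial, ribosomal and haemoglobin genes, which gave 23 clusters. Spots under 500 UMIs (194 in the section labelled trained and 114 in the other) were left out of the clustering. They stayed in the values of the whole section and of its rest, as did 27 and 28 spots of hippocampal clusters that lay outside the hippocampus. Clusters were named from marker sets when the set scored above 1, at least 3 markers reached 5 CPM and the 10 leading genes favoured it. One cluster led by the cholinergic gene Slc5a7 was left without a name because that gene goes against its best set. The rules for names, outline and midline were chosen with the maps in view. Regions were compared with at least 20 spots in each section. The members and lists were chosen with earlier results of these data known. Genes named were the 4 members, the partners with the highest hippocampal level of each group or past 1.5-fold in the hippocampus, and the 3 genes most like each subunit. Marker genes, RNAs of known site and genes named after their values were seen fall outside that rule.

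Gene positions and coding sequences came from GENCODE vM21 and the GRCm38 genome, which matched 32158 of 32285 genes. Sequences at the editing site were read from the genome after translation of the longest coding transcript that holds the site. Statistics used scipy 1.17.1 and numpy 2.4.6 under Python 3.11.15, tables pandas 2.3.3, figures matplotlib 3.10.9 and TMM factors edgeR 4.0.16. The interval and ratio functions were tested on simulated data.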

Additional observations from a re-analysis of the deposited data

How the results depend on the processing

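The hippocampal difference of Gria2 stayed at 1.5-fold or more under every alternative run. It was 0.93 without mitochondrial genes in the total and 0.75 with each spot weighted equally. For Gria1 the hippocampal difference was 0.32 without mitochondrial genes, 0.32 with TMM factors and 0.15 with spots weighted equally. For Gria3 it was 0.19 with spots weighted equally and 0.59, past 1.5-fold, on the left sides alone, and for Gria4 it was -1.09 and -1.42 in the same settings. The whole-section difference of Gria1 turned to -0.00105 with TMM factors. With spots weighted equally the whole-section differences were 0.0086 for Gria1, 0.69 for Gria2, 0.20 for Gria3 and -0.21 for Gria4. The cause of these shifts was not tested. With TMM factors the share of all hippocampal genes 1.5-fold higher and lower was 5.84% and 5.79%, in place of 8.70% and 4.18%. At a minimum of 100 UMIs 15.9% of genes passed 1.5-fold in either direction, and at a minimum of 1 UMI 32.5% did. At 2-fold in place of 1.5-fold 0 partner genes passed, and 4 passed without mitochondrial genes in the total. Divided by the length of the longest transcript, the share of Gria2 in the hippocampus and its layers fell by 12.1 to 15.1 percentage points, and that of Gria1 was higher by 8.14 to 11.4. At Leiden resolution 1, and with spots under 2000 UMIs left out, all 32 layer levels and 40 shares stayed within the counting interval of the main value. The levels that moved past it numbered 20 without mitochondrial genes in the total, 14 on the left side alone, 12 with spots weighted equally and 3 on the right side alone. The shares that did so numbered 30 when divided by length, 11 on the left side alone, 9 as means of spots and 1 on the right side alone. No paired analysis was possible because each label had 1 section. With 1 section per label, depth limits Gria4 most, which had 45 hippocampal UMIs in the section labelled trained.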
